A study of Penicillium oxalicum with 6 samples.

Results

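In the filamentous fungus Penicillium oxalicum, 34 genes that were close to silent in the Ku70 strain had transcripts in a strain deleted for the transcription factor gene POX09752. They were chosen on the RNA-seq levels themselves, as the IDs from POX00001 to POX09342 whose mean over the 3 deletion libraries was 5 FPKM or more while that over the 3 Ku70 libraries was under 1 FPKM. FPKM is a fragment count scaled to gene length and to the mapped fragments of the library. The 34 stand among 9342 IDs of that range and 9834 IDs in all. Each strain had 3 libraries of mycelium, the mass of hyphae that makes up the fungal body, after 24 h in liquid medium with 2% Avicel, a microcrystalline cellulose. About 1 g of hyphae was placed in 100 mL of medium at 28 °C on a shaker at 180 rpm. A growth step of 6 days on PDA, an agar medium, is also listed for all 6 samples. The deletion strain is labelled MuPOX09752, and the strain it was set against is labelled Ku70 and called a mutant in the titles. The series was made to learn what POX09752 does to transcripts of cellulase and xylanase genes.

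Ku70 takes part in the repair of DNA breaks by end joining, and removing it makes targeted gene replacement in fungi easier. The growth text names the Ku70 mutant for all 6 samples. Whether the deletion strain also lacks Ku70, how many transformants it stands for, and whether the 3 libraries of a strain came from separate cultures are not stated in the labels. The p-values below therefore measure only the spread between these libraries.

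A transcription factor is a DNA-binding protein that raises or lowers the transcription of its target genes, and a change in one can also pass on to genes it does not bind. Filamentous fungi carry many genes that are barely transcribed under a given laboratory condition. Those for secondary metabolites, for transport and for the use of unusual nutrients are well-known examples, and the genes of one such pathway often lie side by side on a chromosome. The reference table used here paired none of the gene IDs with a name, a product or a position (0 matches), so no member is given a function. An ID number is used below only as a number, and whether the numbers follow gene order was not tested.

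The libraries held 13099454 to 14115694 expected counts. POX09752 itself had 0 counts in every deletion library and 1568, 1375 and 1663 counts in the Ku70 libraries. Taking 3 counts as the most that 0 over the 3 deletion libraries allows, it was at least 1479-fold lower there (edgeR, adjusted p = 4.73e-07). Deletion replicate 3 stood apart. Across genes, log2(FPKM + 1) correlated at Pearson's r = 0.993 between deletion replicates 1 and 2, and 0.981 and 0.984 for the pairs with replicate 3. Between Ku70 libraries it was 0.995 to 0.996.

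Few of the barely transcribed IDs met the rule. Of the 9342 IDs in the range, 1136 (12.2%) had a mean under 1 FPKM in the Ku70 strain. In the deletion strain 830 of these 1136 also stayed under 1 FPKM, 272 lay between 1 and 5 FPKM, and the 34 members, 2.99%, were at 5 FPKM or more. Among the 492 IDs numbered above POX09342, 159 were under 1 FPKM in the Ku70 strain, and 87 of those, 54.7%, had at least 5 FPKM in the deletion strain.

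**Figure D1:**
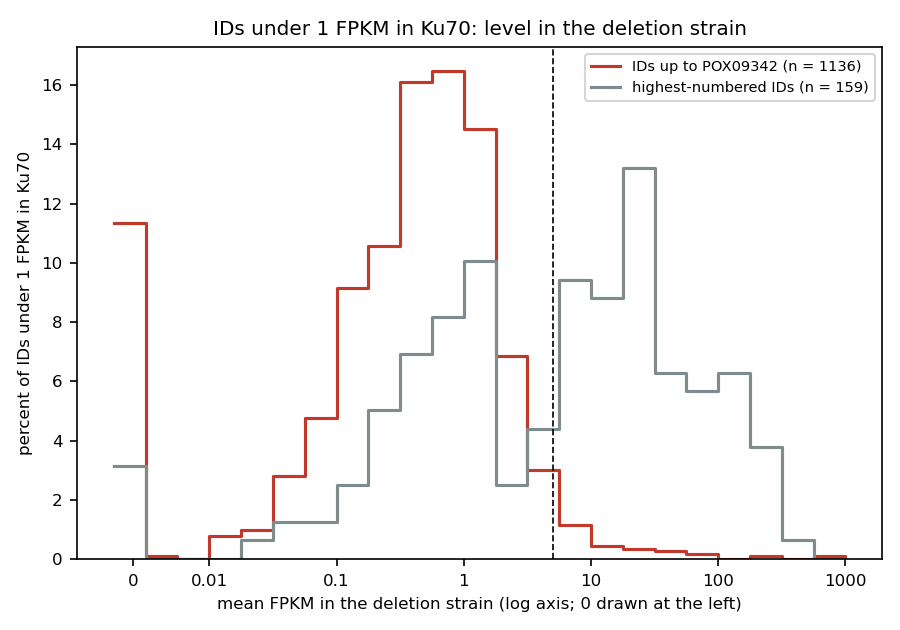
Share of IDs (vertical axis, percent) by mean FPKM in the deletion strain (horizontal log axis) for all IDs with a mean under 1 FPKM in Ku70. The dashed line marks 5 FPKM. Of the 1136 IDs up to POX09342, 34 lie at or right of the line, against 87 of the 159 highest-numbered IDs.

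The word silent fits some members better than others. In the Ku70 libraries 30 of the 34 had at least 1 count in some library, and 4 had none. All 34 entered the edgeR test across genes and were called higher. Of the 8807 tested IDs 29.8% were called higher and 60.1% were called in one or the other direction. The rule chose the members on this very contrast, so their calls show nothing further. The same holds for the lack of overlap: in all 34 every deletion library lay above every Ku70 library, as in 35.5% of tested IDs. In bulk mycelium, a transcript made by few cells and a low level in every cell cannot be told apart.

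POX03434 was the most abundant member by far. It had 615, 1572 and 267 FPKM in deletion replicates 1, 2 and 3, against 0.59, 0.38 and 0.52 FPKM in the Ku70 libraries. Its mean in the deletion strain, 818 ± 676 FPKM (SD, n = 3), ranked 157th among all 9834 IDs. The summed counts were 31318 in the deletion libraries and 20 in the Ku70 libraries, a ratio of 1625 after scaling to library totals. The 95% exact binomial interval of that ratio, 1052 to 2661, covers counting error only, as do all such intervals here. All 3 deletion libraries were high, yet replicate 2 stood 5.89-fold above replicate 3.

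POX00859 came next, with 393, 296 and 159 FPKM in the deletion libraries, against 0.23, 0.37 and 0.65 FPKM in the Ku70 libraries. Its scaled count ratio was 680 (interval 445 to 1099). These 2 IDs supplied 72% and 78.4% of all counts on the members in deletion replicates 1 and 2, and 36.2% in replicate 3. They were the only members with a mean above 100 FPKM.

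Another 8 members had means from 20 to 100 FPKM in the deletion strain. POX04369 stood at 77.2, 94.2 and 51.1 FPKM in the deletion libraries, against 0.56, 0.54 and 0.69 FPKM in the Ku70 libraries. POX08694 stood at 10.1, 29.9 and 162 FPKM in the deletion libraries, against 1, 0.93 and 0.9 FPKM in the Ku70 libraries. The first was fairly even among the deletion libraries, and the second was high above all in replicate 3.

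POX02208 had 56.5, 41.6 and 33.2 FPKM in the deletion libraries, against 0.14, 0.07 and 0.35 FPKM in the Ku70 libraries. The Ku70 values rest on 2, 1 and 5 counts, and the scaled ratio was 236 (interval 120 to 548). POX07394, with an implied length of only 187 bases, had 26.4, 43.2 and 36 FPKM in the deletion libraries, against 1.14, 0.79 and 0.77 FPKM in the Ku70 libraries. Implied length is what an ID's count, FPKM and library total together give, and it may be shorter than the annotated gene.

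Other members of this level differed in how they spread over the deletion libraries. POX03532 had 19.6, 26.7 and 34.8 FPKM in the deletion libraries, against 0.85, 0.96 and 0.86 FPKM in the Ku70 libraries. POX04562 had 9.33, 13.5 and 61.3 FPKM in the deletion libraries, against 0.15, 0.26 and 0.15 FPKM in the Ku70 libraries. POX03413 had 9.69, 15.4 and 42.6 FPKM in the deletion libraries, against 0.44, 0.74 and 0.36 FPKM in the Ku70 libraries.

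**Figure D2:**
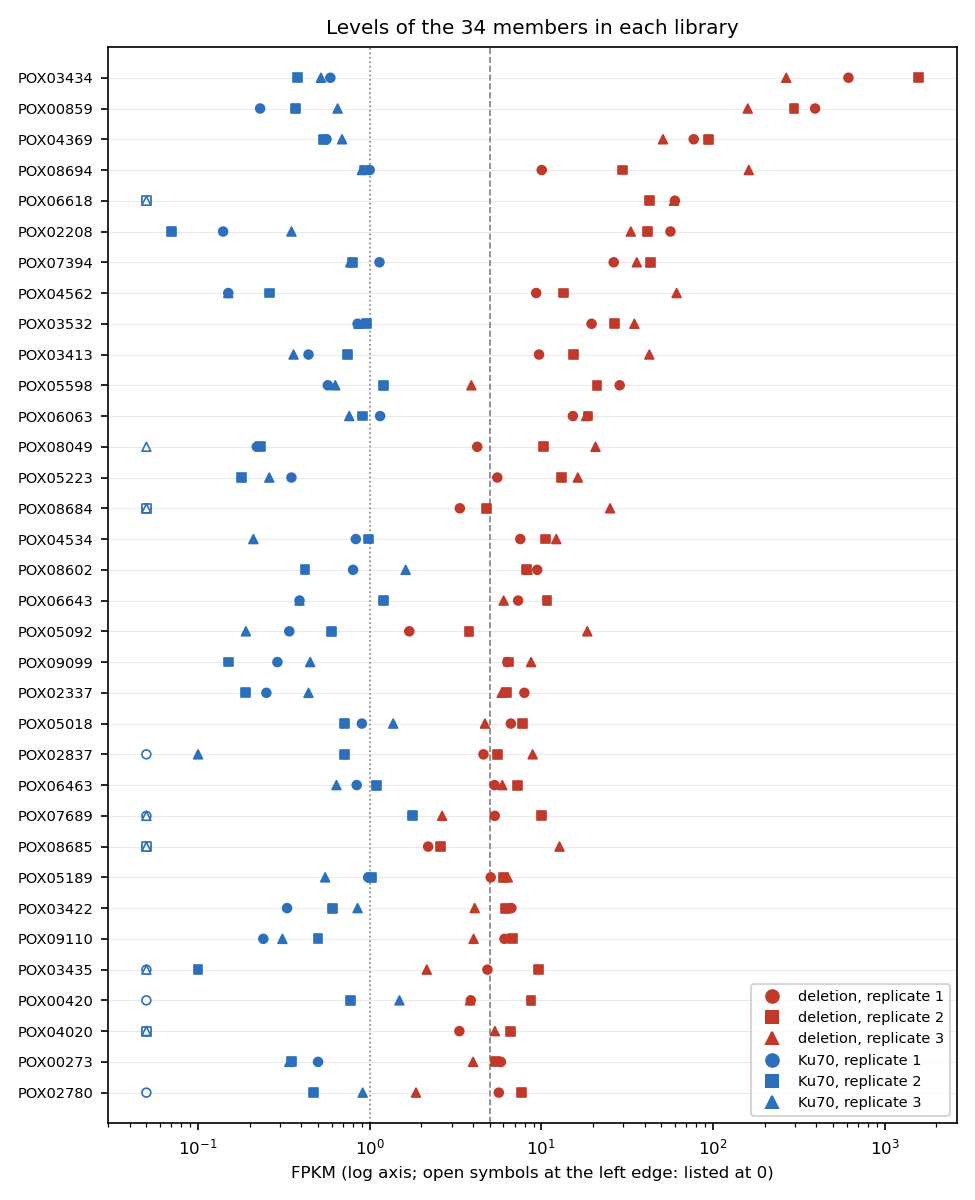
FPKM of each member (rows, ordered by mean in the deletion strain) in the 3 deletion and the 3 Ku70 libraries on a log axis. Symbols mark replicates, open symbols an ID listed at 0, and the lines 1 and 5 FPKM. In every row the deletion libraries lie to the right of the Ku70 libraries, and the deletion means run from 818 FPKM for POX03434 at the top to 5.06 FPKM for POX02780 at the bottom.

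Most members reached only a low level. Means were 10 to 20 FPKM for 6 members and under 10 FPKM for 18, and the median member lay at 8.34 FPKM, and the median percentile of the members among all IDs of the deletion strain was 27.3. Together the members took 0.149%, 0.24% and 0.125% of the counts of the deletion libraries, and 0.00134%, 0.00158% and 0.00137% of those of the Ku70 libraries. The median member had 6.67, 9.79 and 10.6 FPKM in the deletion libraries, against 0.335, 0.52 and 0.415 FPKM in the Ku70 libraries. Every deletion library was at or above 5 FPKM in 19 members, and every Ku70 library was under 1 FPKM in 23.

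No count at all was found for 4 members in the Ku70 libraries. POX06618 had a short implied length, 218 bases, and 60, 42.6 and 59.3 FPKM in the deletion libraries from 175, 122 and 175 counts. Against a floor of 3 counts over the 3 Ku70 libraries together, this was at least 163-fold higher. POX08684 had 3.35, 4.78 and 25.1 FPKM in the deletion libraries (at least 86.5-fold higher). POX08685 had 2.19, 2.58 and 12.8 FPKM there (at least 72.3-fold higher). POX04020 had 3.33, 6.59 and 5.36 FPKM from 16, 31 and 26 counts (at least 25.3-fold higher). The values of POX06618 were close to each other among the deletion libraries, while those of POX08684 and POX08685 were high in replicate 3 alone.

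Over the whole group, the scaled count ratio of the deletion strain over Ku70 ran from 6.39 for POX05018 to 1625 for POX03434. Its median was 24.1 with the 4 members at 0 set to their bounds, and 22.7 without them. A ratio of 100 or more was found in 7 members and one under 10 in 6. Without deletion replicate 3 the median with bounds was 22.9, and the ratios of 7 members fell by more than 1.5 times. A rise of that size was barely possible, since counts are pooled over 3 libraries of similar depth. Without replicate 3 the ratio of POX05598 rose from 22.4 to 31.3, and that of POX03434 from 1625 to 2182. The ratio of POX04562 was 150 with and 60.3 without that library, that of POX08694 71.8 and 21, that of POX03413 44.5 and 24.5, and that of POX05092 21.4 and 7.25. The bounds of POX08684 and POX08685 were then at least 31.4-fold and 29.3-fold. Without deletion replicate 2 the ratio of POX03434 was 882. POX03435 had 4.85, 9.58 and 2.15 FPKM in the deletion libraries, against 0, 0.1 and 0 FPKM in the Ku70 libraries. With 2 counts in the Ku70 strain, its ratio of 169 has an interval of 46.3 to 1399, and it was 107 without deletion replicate 2 and 76 without Ku70 replicate 2.

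Several members near the lower limit rest on few counts. Over the deletion libraries together, 8 of the 34 had fewer than 100 counts. POX07689 had 20 counts there and 2 in the Ku70 libraries, and POX00420 had 21 and 3, at implied lengths of 84 and 96 bases. Their ratios of 10.4 and 7.27 have intervals of 2.52 to 91.6 and 2.17 to 38. POX02780, at an implied 159 bases, had 32 counts in the deletion libraries and 3 in the Ku70 libraries, a ratio of 11.1 (interval 3.46 to 56.5). POX08049 had 150 counts in the deletion libraries and 2 in the Ku70 libraries, a ratio of 77.8 (interval 21.2 to 649) that was 47.8 without deletion replicate 3. Leaving out 1 Ku70 library moved such ratios too: that of POX07689 was 4.67 without replicate 2, and those of POX00420 and POX02780 were 14.5 and 22.1 without replicate 3. The ratio of POX02208 was 236 with all libraries and 418 without Ku70 replicate 3, and that of POX02837 24.1 and, without Ku70 replicate 2, 130.

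The thresholds cut through a continuous range. Just inside the 5 FPKM limit lay POX02780 (5.65, 7.68 and 1.86 FPKM in the deletion libraries), POX00273 (5.81, 5.39 and 4 FPKM) and POX04020, with means of 5.06, 5.07 and 5.09 FPKM. Just outside lay POX08666 (2.79, 0.57 and 11.6 FPKM), POX07909 (6.32, 5.52 and 2.91 FPKM) and POX03900 (3.89, 4.18 and 6.28 FPKM), with means of 4.99, 4.92 and 4.78 FPKM. At the Ku70 limit, POX05018, POX08602 and POX08694 were just inside, with Ku70 means of 0.993, 0.947 and 0.943 FPKM. POX03412, POX03593 and POX05076 were just outside, with Ku70 means of 1.03, 1.05 and 1.11 FPKM.

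Of those inside at the Ku70 limit, POX05018 had 6.64, 7.74 and 4.69 FPKM in the deletion libraries, against 0.9, 0.71 and 1.37 FPKM in the Ku70 libraries. POX08602 had 9.46, 8.15 and 8.31 FPKM in the deletion libraries, against 0.8, 0.42 and 1.62 FPKM in the Ku70 libraries. POX05076 just outside had higher levels than both, at 19.5, 24.4 and 22.8 FPKM in the deletion libraries, against 0.97, 1.24 and 1.11 FPKM in the Ku70 libraries.

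The members had a wide spread among the 3 deletion libraries. The rule uses only the mean and does not set this spread, though a single high library can carry a mean past 5 FPKM. The ratio of the highest to the lowest deletion library had a median of 1.89 over the members (range 1.16 to 16.1), against 1.23 over all 8807 tested IDs. Among the 7744 tested IDs with at least 5 FPKM in the deletion strain it was 1.21. A ratio of 2 or more was found in 15 of 34 members (44.1%), against 7.56% of all tested IDs and 4.99% of those with at least 5 FPKM. With deletion replicates 1 and 2 alone, the medians were 1.36 for the members and 1.08 for all tested IDs. A wide spread was not particular to the members. In the 87 highest-numbered IDs that met the same thresholds the median ratio was 2.52, and 64.4% had a ratio of 2 or more. With replicates 1 and 2 alone, the median of the 87 was 1.8. Low counts widen such ratios. Beyond the 5 FPKM limit neither set of tested IDs was matched to the members in level, length or counts, and the 87 shared only the thresholds. Among the 11 members that differed 4-fold or more were both POX02780, with 4 to 16 counts per deletion library, and POX03434, with 3486 to 19893.

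The place of replicate 3 differed between members, while the order of replicates 1 and 2 was shared by most. Replicate 2 lay above replicate 1 in 26 of 34 members (76.5%), against 52.8% of all tested IDs. Replicates 1, 2 and 3 were the highest deletion library in 8, 13 and 13 members (23.5%, 38.2% and 38.2%), against 27.7%, 31.2% and 41% of all tested IDs. They were the lowest in 17, 2 and 15 members (50%, 5.88% and 44.1%), against 31.6%, 28.1% and 40.3% of all tested IDs. The shares for replicate 3 thus lay near those of all tested IDs. Relative to the mean of replicates 1 and 2, replicate 3 was at least 2-fold higher in 7 members (20.6%) and at least 2-fold lower in 6 (17.6%). Over all tested IDs these shares were 2.4% and 1.84%.

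The 7 members that were high in replicate 3 were POX08694, POX05092, POX08684, POX04562, POX08685, POX03413 and POX08049. POX08694 had the widest spread of all members, 16.1-fold. POX05092 followed at 10.9-fold, with 1.7, 3.79 and 18.5 FPKM in the deletion libraries, against 0.34, 0.6 and 0.19 FPKM in the Ku70 libraries. The third widest was POX08684 at 7.5-fold. Without replicate 3, the deletion means of POX05092, POX08684, POX08685 and POX04020 lay under the 5 FPKM limit, and they were no longer members.

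The 6 members that were low in replicate 3 were POX05598, POX03434, POX02780, POX03435, POX07689 and POX00859. POX05598 had 28.6, 21.1 and 3.91 FPKM in the deletion libraries, against 0.57, 1.2 and 0.63 FPKM in the Ku70 libraries, a 7.31-fold spread within the deletion strain. At the even end stood POX08602 (1.16-fold), POX06063 (1.23-fold) and POX05189 (1.26-fold). POX06063 had 15.3, 18.7 and 18.2 FPKM in the deletion libraries, against 1.15, 0.91 and 0.76 FPKM in the Ku70 libraries. POX05189 had 5.07, 5.99 and 6.37 FPKM in the deletion libraries, against 0.98, 1.03 and 0.55 FPKM in the Ku70 libraries.

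**Figure D3:**
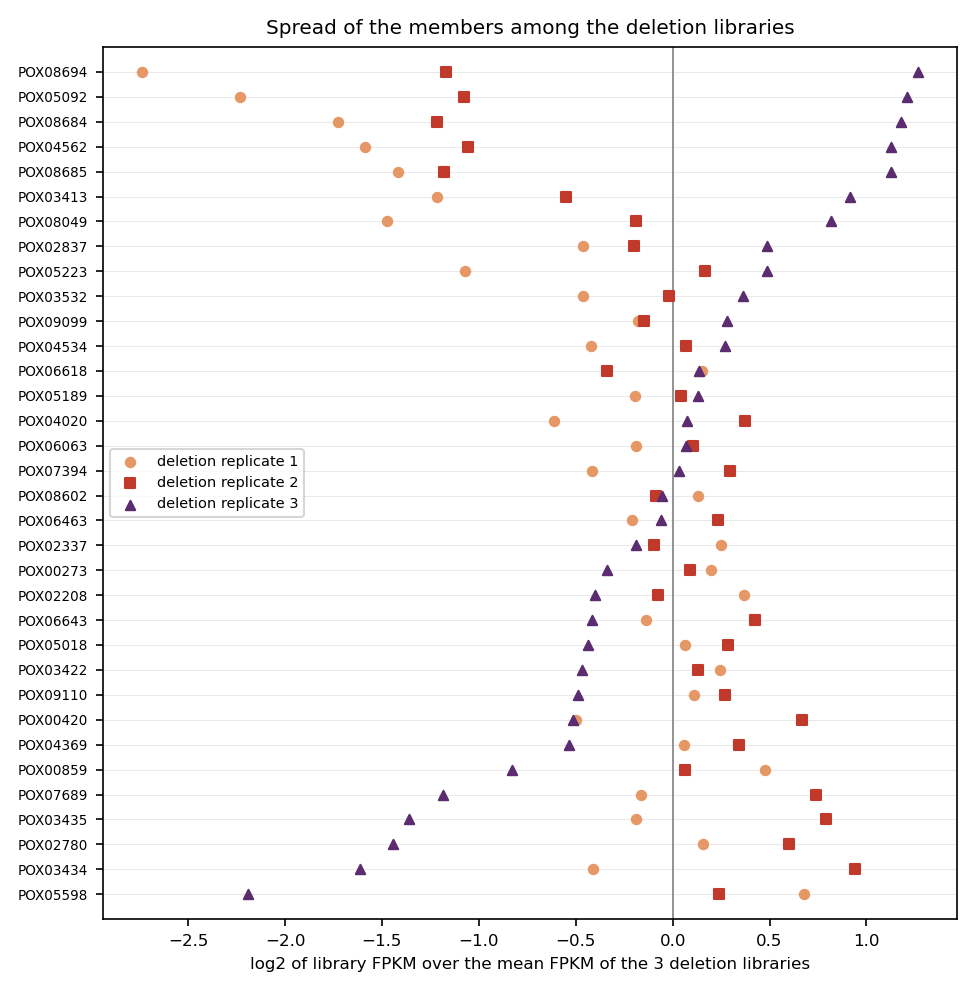
Level of each member in the 3 deletion libraries as log2 of its FPKM over its mean in that strain (horizontal axis), ordered by replicate 3. Replicate 3 (triangles) lies far to the right for the 7 members at the top and far to the left for the 6 at the bottom, and replicate 2 (squares) lies right of replicate 1 (circles) for 26 of the 34.

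Of the members not yet described, POX05223 was the highest. It had 5.54, 13.1 and 16.3 FPKM in the deletion libraries, against 0.35, 0.18 and 0.26 FPKM in the Ku70 libraries. POX04534, POX06643, POX09099, POX02337, POX02837, POX06463, POX03422 and POX09110 had means of 5.65 to 10.1 FPKM in the deletion strain and of 0.27 to 0.86 FPKM in the Ku70 strain. Their highest deletion library was at most 1.94-fold above the lowest.

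The values of IDs next to the members were not used to choose them, and 47.7% of these neighbours were higher in the deletion strain. There were 128 non-member IDs within 2 ID numbers of a member, and 107 of them could be tested. Calls at an adjusted p under 0.05 (edgeR, Benjamini-Hochberg) put 51 higher in the deletion strain (47.7%) and 21 lower (19.6%), and 35 were not called. Over all tested IDs, 29.8% were higher and 30.2% lower. Among the 8236 tested IDs of the range that were neither members nor within 2 ID numbers of one, 27.9% were higher and 31.2% lower. The share over neighbours is a description, since neighbouring IDs are not independent of each other and no set test was made.

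The same was counted for large differences. A call with at least a 4-fold rise was found for 17 of the 107 neighbours (15.9%), against 5.34% of all tested IDs and 3.23% of those elsewhere in the range. At least 4-fold falls were found for 3 (2.8%), against 2.87% of all tested IDs. Within 1 ID number 46.3% of 54 tested neighbours were higher, and within 5 ID numbers 40.4% of 270 were. Among the 103 neighbours with at least 1 FPKM in both strains 47.6% were higher, against 28.3% of all such IDs, so the count does not hang on IDs that passed the filter in one strain alone. At least 1 neighbour within 2 ID numbers was called higher by 4-fold or more for 15 of the 34 members. No background share stands beside this count, so it only describes where the 17 rises lay.

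**Figure D4:**
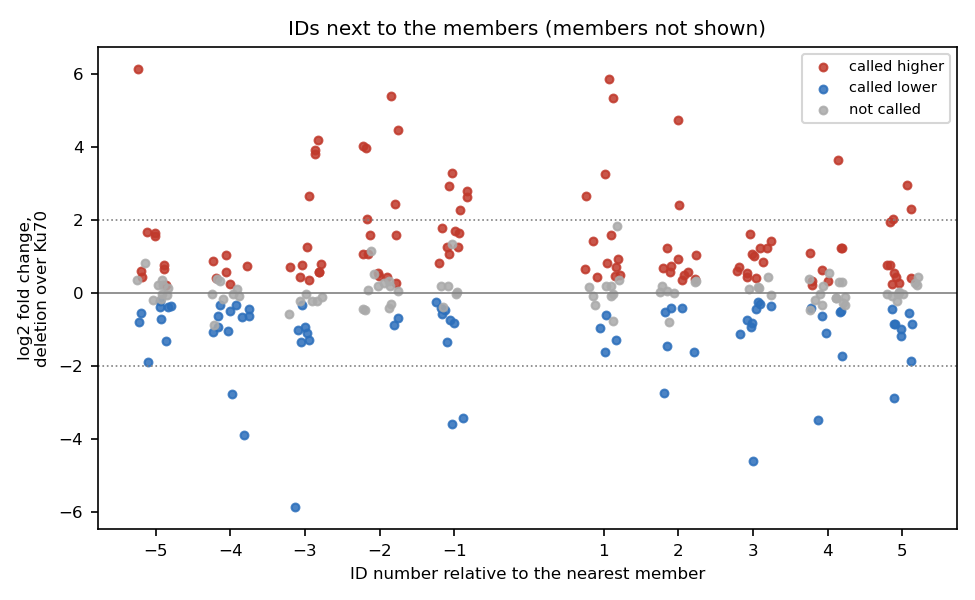
Log2 fold change of the deletion strain over Ku70 (vertical axis) for tested IDs within 5 ID numbers of a member (horizontal axis), coloured by the edgeR call at an adjusted p under 0.05. The dotted lines mark 4-fold. Above the upper line lie 17 IDs within 2 ID numbers of a member, and below the lower line 3.

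POX00860, the ID after POX00859, followed that member closely. It had 152, 128 and 77.8 FPKM in the deletion libraries, against 1.54, 2.19 and 2.3 FPKM in the Ku70 libraries, an edgeR log2 fold change of 5.85 with an SE of 0.31 (adjusted p = 2.73e-06). Both IDs were highest in deletion replicate 1 and lowest in replicate 3. On either side POX00861 did not pass the test (log2 fold change 0.03, adjusted p = 0.877, edgeR) and POX00858 fell (-0.47, adjusted p = 0.00555). POX00858 had 19.3, 19.5 and 18.2 FPKM in the deletion libraries, against 29.1, 23.9 and 23.9 FPKM in the Ku70 libraries. Further on, POX00863 and POX00864 rose by 3.64 ± 0.34 and 1.94 ± 0.16 on the log2 scale (SE, adjusted p = 4.85e-05 and 2.23e-05, edgeR). They too were highest in deletion replicate 1 and lowest in replicate 3. The same order was seen without a call in POX00861, at 216, 186 and 139 FPKM in the deletion libraries. It was also seen in the uncalled POX00862, at 314, 239 and 194 FPKM there. The order was thus not particular to the IDs that rose.

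POX06064, the ID after POX06063, had 95.5, 115 and 95 FPKM in the deletion libraries, against 2.69, 2.82 and 1.79 FPKM in the Ku70 libraries (edgeR log2 fold change 5.35 with an SE of 0.17, adjusted p = 1.79e-07). Like POX06063 it was even among the deletion libraries. The IDs before POX04562 also rose: POX04560 had 16.3, 31 and 71.1 FPKM in the deletion libraries, against 1.81, 2.09 and 1.3 FPKM in the Ku70 libraries. POX04561 had 7.81, 13.7 and 30.9 FPKM in the deletion libraries, against 2.76, 1.98 and 1.92 FPKM in the Ku70 libraries. Their log2 fold changes were 4.47 ± 0.58 and 2.93 ± 0.51 (SE, adjusted p = 0.000289 and 0.0015, edgeR). POX04559, 3 ID numbers before the member, was higher as well, at 33.7, 31.2 and 53.1 FPKM in the deletion libraries, against 6.48, 5.8 and 6.02 FPKM in the Ku70 libraries. Its log2 fold change was 2.65 ± 0.21 (SE, adjusted p = 2.16e-05, edgeR). The 4 consecutive IDs POX04559 to POX04562 were all highest in deletion replicate 3, as were 41% of all tested IDs. So were the uncalled POX04558 before them and the falling POX04564 after them, while the uncalled POX04563 was highest in replicate 1. Without replicate 3 the log2 fold changes of POX04559, POX04560 and POX04561 were 2.39, 3.74 and 2.24, and all 3 kept their call. POX04564 on the other side of POX04562 fell, with an edgeR log2 fold change of -2.74 with an SE of 0.11 (adjusted p = 5.69e-07).

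Consecutive numbers occurred in 2 pairs of members. POX03434 and POX03435 were both highest in deletion replicate 2 and lowest in replicate 3. The order was not particular to this pair. It was also seen in POX04369, POX06643, POX05018, POX07689, POX09110, POX00420 and POX02780. The outer neighbours of the pair, POX03433 and POX03436, did not pass the test. POX03433 had 73.2, 73.2 and 70 FPKM in the deletion libraries, against 62.4, 63.5 and 60.2 FPKM in the Ku70 libraries (log2 fold change 0.19, adjusted p = 0.0559, edgeR), and it passed under 8 of the alternatives, among them limma with adjusted p = 0.0272. Although adjacent in number, the 2 members differed in level, at 818 and 5.53 FPKM on average in the deletion strain.

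POX08684 and POX08685 form the other pair, and POX08694 lies 9 ID numbers on. The IDs before the pair rose too. POX08683 had 23.5, 26.6 and 62.2 FPKM in the deletion libraries, against 3.66, 3.38 and 4.16 FPKM in the Ku70 libraries (edgeR log2 fold change 3.28 with an SE of 0.42, adjusted p = 0.000268). POX08682 had 1.02, 1.54 and 6.47 FPKM in the deletion libraries, against 0.18, 0.22 and 0.13 FPKM in the Ku70 libraries (edgeR log2 fold change 4.03 with an SE of 0.77, adjusted p = 0.00241). All 4 consecutive IDs from POX08682 to POX08685 were thus highest in deletion replicate 3. So were the untested POX08681 before them and, after them, POX08686 and POX08687, both called lower.

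Between the pair and POX08694 the run was broken. Of the 8 IDs in between, 6 were tested, 0 were higher and 3 were lower. POX08693, next to POX08694, had 1.55, 1.53 and 1.04 FPKM in the deletion libraries, against 14.9, 14.1 and 14.4 FPKM in the Ku70 libraries (edgeR log2 fold change -3.42 with an SE of 0.15, adjusted p = 9.35e-07). On the other side POX08696 had 15.3, 32.4 and 109 FPKM in the deletion libraries, against 2.16, 2.1 and 1.41 FPKM in the Ku70 libraries (edgeR log2 fold change 4.73 with an SE of 0.81, adjusted p = 0.00134). It was highest in deletion replicate 3, as POX08694 was. POX08695 between them did not pass the test, and it too was highest in replicate 3, at 2.65, 1.9 and 4.43 FPKM in the deletion libraries. POX08698, also highest in replicate 3, had 65.3, 98.6 and 236 FPKM in the deletion libraries, against 57, 55.3 and 53.6 FPKM in the Ku70 libraries (edgeR log2 fold change 1.24, adjusted p = 0.0294). Without replicate 3 the log2 fold changes of POX08683, POX08696 and POX08698 were 2.72, 3.62 and 0.55, all still called, and POX08682 was not tested, its mean then being under the 1 FPKM filter. The call of POX08698 was lost with limma (adjusted p = 0.0594) and with any 1 Ku70 library left out (0.0828 to 0.0893).

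**Figure D5:**
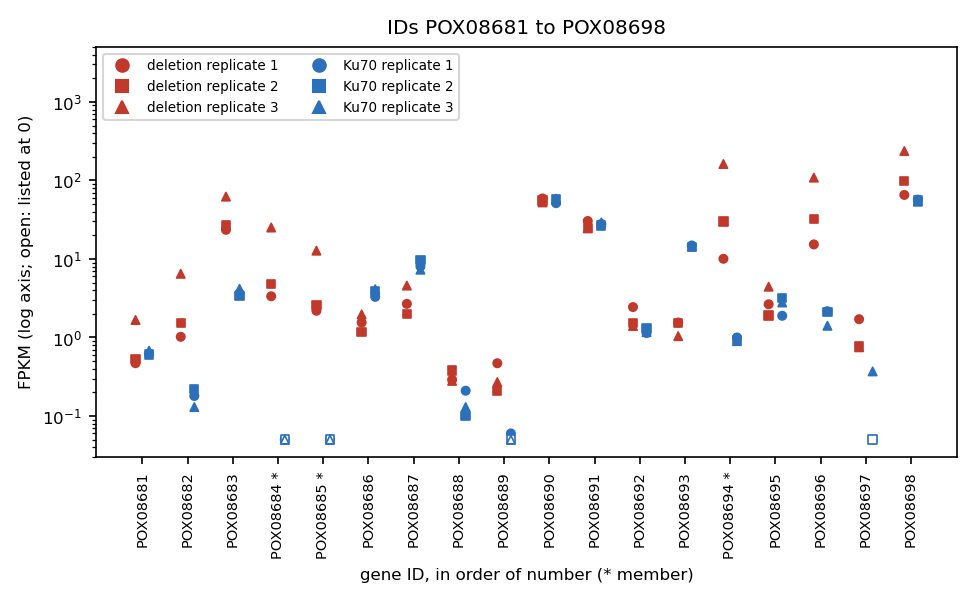
FPKM in every library (vertical log axis) for the consecutive IDs POX08681 to POX08698 (horizontal axis), a window chosen after the values were seen. Members carry a star, deletion libraries are drawn left of Ku70 libraries, and open symbols mark an ID listed at 0. Deletion values above those of Ku70, with replicate 3 on top, stand at POX08682 to POX08685, POX08694, POX08696 and POX08698, and POX08693 shows the opposite difference.

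Large rises also stood near other members. POX05016, which lies 2 ID numbers before POX05018, had 51, 82 and 274 FPKM in the deletion libraries, against 3.41, 3.64 and 2.37 FPKM in the Ku70 libraries (edgeR log2 fold change 5.40 with an SE of 0.70, adjusted p = 0.00031). It was highest in replicate 3, where POX05018 was lowest. POX00271, 2 ID numbers before POX00273, had 647, 555 and 647 FPKM in the deletion libraries, against 39.1, 36.6 and 40.4 FPKM in the Ku70 libraries (edgeR log2 fold change 3.96 with an SE of 0.10, adjusted p = 7.84e-08). The ID before it, POX00270, also rose, with 1289, 1200 and 1169 FPKM in the deletion libraries, against 77.9, 72.4 and 84.6 FPKM in the Ku70 libraries (edgeR log2 fold change 3.93 with an SE of 0.10, adjusted p = 6.97e-08). POX09100 and POX09109, next to POX09099 and POX09110, rose by 3.26 ± 0.32 and 2.62 ± 0.13 on the log2 scale (SE, adjusted p = 7.02e-05 and 1.99e-06, edgeR).

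Falls of 4-fold or more among the neighbours were seen in POX04564, POX08693 and POX05188. POX05188, the ID before POX05189, had 7.53, 10 and 6.18 FPKM in the deletion libraries, against 85.4, 101 and 94.6 FPKM in the Ku70 libraries (edgeR log2 fold change -3.60 with an SE of 0.16, adjusted p = 1.13e-06). Rises of that size were also found in POX03412, POX03534, POX04532, POX06641, POX07688 and POX07690, with log2 fold changes of 2.80, 2.42, 2.02, 2.43, 2.26 and 2.67.

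POX07689, with its implied 84 bases and 20 counts, stands between POX07688 and POX07690. POX07688 had 915, 865 and 954 FPKM in the deletion libraries, against 185, 188 and 185 FPKM in the Ku70 libraries. POX07690 had 16.3, 17.3 and 11.6 FPKM in the deletion libraries, against 2.34, 1.94 and 2.62 FPKM in the Ku70 libraries. The files do not say whether genes overlap or whether strand was used in counting, and the part of reads from neighbouring transcripts was not tested. Among the deletion libraries POX07689 and POX07690 were both highest in replicate 2 and lowest in replicate 3, while POX07688 was highest in replicate 3. The order of POX07689 rests on 6, 11 and 3 counts in replicates 1, 2 and 3, and several members elsewhere shared it.

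The median implied length of the members was 767 bases, and 38.2% were under 500 bases. Over the 9741 IDs with a count in some library the median was 1169 bases and 18.8% were under 500 bases. Over the 1044 such IDs of the range under 1 FPKM in the Ku70 strain it was 636 bases, with 44.6% under 500 bases. A count that was not whole in some library was found in 1 of the 34 members, POX09099 (2.94%), against 11.2% of all IDs. Whole counts do not show that no reads were divided between similar sequences, and this was not tested.

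The same measures in the 87 highest-numbered IDs that meet the thresholds are given for comparison, and no difference between the 2 sets was tested. The median level in the deletion strain was 8.34 FPKM over the 34 members and 27.2 FPKM over the 87. A fractional count was found in 2.94% of the 34 members and in 23% of the 87. Deletion replicate 1 was the lowest deletion library in 50% of the 34 members and in 90.8% of the 87. Replicate 3 was the lowest in 44.1% of the 34 members and in 4.6% of the 87.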

How the data were processed

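Each library has 1 deposited table with an expected count and an FPKM value per gene ID. Tools listed in the submitters' processing notes, with no role given, are RSEM 1.2.12, DESeq2, Bowtie2 2.1.0 and BWA 0.7.10-r789. No source used here gives the genome build, annotation, strandedness or read filters. Per the file headers, the deposited expected counts are not normalized, and the FPKM values were scaled by the authors to gene length and library total. In a library, 2.76% to 3.24% of IDs had a count that was not whole (tolerance 1e-09).

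Expected counts were rounded. The 8807 IDs whose mean over the 6 libraries reached 1 FPKM were tested with edgeR 4.0.16 (quasi-likelihood, TMM factors 0.973 to 1.02, Benjamini-Hochberg over all tested IDs, R 4.3.3) and checked on simulated counts. Standard errors are the log2 fold change over the square root of F. limma 3.58.1 and DESeq2 1.42.0 were alternatives. The members, lists and rules were chosen with earlier results of these data known. Values per library are given for the 10 highest members, those at 0 in Ku70, consecutive members, the 3 widest and 3 most even, and those at the thresholds. POX05223, the members with 2 or 3 Ku70 counts and some non-members were added after their values were seen, not all with values per library. These non-members were POX00270, POX00858, POX00861, POX00862, POX00863, POX00864, POX03433, POX03436, POX04558, POX04559, POX04563, POX08681, POX08686, POX08687, POX08695 and POX08698. Other non-members named are those at the thresholds and called 4-fold neighbours within 2 ID numbers. The reference table (assembly ASM172317v3) matched 0 of 9834 IDs, so no name, sequence or position is given. Replicates differed by more than counting error (chi-square per gene at least 7.01), so none was a repeat deposit, and intervals cover counting error only.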

Additional observations from a re-analysis of the deposited data

How the results depend on the processing

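The number of members depended on the thresholds. Limits of 0.5 and 10 FPKM left 8 of the 34, limits of 2 and 5 FPKM gave 82, and 12 had every library on its side of both limits. Medians in place of means gave 33 (29 of them among the 34), TMM-scaled FPKM 33, and leaving out a library 31 to 37, with 28 to 32 of the 34 kept. Neighbours called higher numbered 51 within 2 ID numbers, 25 within 1 and 109 within 5, and those called lower 21, 13 and 74, since the number of IDs looked at changes with the distance. Leaving out a library gave 44 to 54 higher and 18 to 23 lower neighbours, and other scalings, filters and tools 47 to 55 and 17 to 22. The restriction to neighbours with at least 1 FPKM in both strains (49 higher, 21 lower) and the spread with a deletion library left out (1.36 to 1.67) were chosen after seeing the data; a ratio over 2 libraries is smaller by construction. Called IDs over the whole table ran from 4459 to 5819 with a library left out, against 5290. The ratio of the members' median levels in the deletion strain over Ku70 was 17.4, and 15.6 to 20.4 with a library left out. Of 522 values for the other named IDs, 501 kept sign and call. Calls were lost in 8, for POX08682 with limma at a pseudocount of 5 (adjusted p = 0.0646) and otherwise for POX08698, and POX03433 passed in 8. With a library left out, 3 uncalled IDs changed sign: POX00861 ran from -0.12 to 0.2, POX03436 from -0.23 to 0.08 and POX08695 from -0.22 to 0.4 on the log2 scale. Of 525 fitted fold changes of members, 121 moved by more than the spread between the deletion libraries, and none changed sign, a sign that the choice of members fixes. Replicate numbers did not clearly pair the samples: deviations of same-numbered libraries correlated at -0.017, 0.156 and 0.075. With a replicate block 5283 IDs were called by edgeR and 5119 by limma, and 52 and 53 neighbours were higher. Depth limits the Ku70 levels: 4 members had no count there, and 5 had 2 or 3.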
